A study of Mus musculus with 6 samples.

Results

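The genes described here are 10 members of the machinery that degrades extracellular matrix, chosen by symbol: the tissue inhibitors of metalloproteinases Timp1, Timp2 and Timp3, the membrane-anchored inhibitor Reck, the matrix metalloproteinases Mmp2, Mmp12, Mmp13, Mmp14 and Mmp19, and the cysteine protease Ctsk. They are 10 of the 55416 genes in the count table, each with 1 matching gene ID, and all 10 passed the filter on low counts. RNA from whole liver of male mice was sequenced as 6 libraries. The 3 KO libraries came from animals with floxed Ephb2 and the Pdgfrb-CreERT2 driver, a tamoxifen-inducible recombinase active in stellate cells, pericytes and other cells that use the Pdgfrb promoter. The 3 WT libraries came from animals with floxed Ephb2 and no Cre. All mice received tamoxifen for 5 days at an age of 8 to 10 weeks. They then ate a choline-deficient, amino-acid-defined high-fat diet for 8 weeks, with 45% of calories as fat, 0.1% methionine and 1% cholesterol, which gives mice a fatty and scarred liver. No group had Cre without floxed Ephb2, and no group ate another diet, so the levels below are those of diet-fed liver in both genotypes.

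Matrix metalloproteinases are zinc-dependent endopeptidases that are made as inactive precursors and cleave collagens, elastin and other matrix proteins once activated. TIMPs bind their active sites and block them. In scarring liver, stellate cells and fibroblasts are known sources of TIMPs and of gelatinase A, the product of Mmp2, while macrophages are known sources of macrophage elastase, the product of Mmp12, and of collagenase 3, the product of Mmp13. Cathepsin K, the product of Ctsk, is a lysosomal collagenase of another protease class, which cystatins and not TIMPs inhibit. In RNA from whole liver, fewer cells of a type and less RNA per cell cannot be told apart.

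Mmp12 and Mmp13 are neighbours in the metalloproteinase cluster of chromosome 9 of GRCm38, at positions 7344381 to 7369499 and 7272514 to 7283331, both on the plus strand. AP-1, the transcription factor of the Fos and Jun families, is known to act on many promoters of metalloproteinases, so its motif TGANTCA, which reads the same on both strands, was searched in the 250 bases before each RefSeq start on GRCm38.p6. A start was listed for 8 of the 10 genes. The motif was found before Mmp13 and before 1 of the 2 starts of Mmp12, and in 6.75% of all 32851 promoter windows. It was not among the letters of the windows of Timp1, Timp2, Timp3, Reck, Mmp14 and Ctsk. The 100 bases before the start are shown for both neighbours, whose levels differ widely below, and for Timp1 as a window without the motif. They are chr9:7272414-7272513 for Mmp13, chr9:7347274-7347373 for Mmp12 and chrX:20870066-20870165 for Timp1, all on the plus strand, with the AP-1 motif in capitals.
Mmp13: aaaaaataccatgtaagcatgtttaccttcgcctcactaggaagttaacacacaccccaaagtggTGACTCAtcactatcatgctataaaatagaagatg
Mmp12: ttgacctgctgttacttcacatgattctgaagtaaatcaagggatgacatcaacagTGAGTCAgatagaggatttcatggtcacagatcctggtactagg
Timp1: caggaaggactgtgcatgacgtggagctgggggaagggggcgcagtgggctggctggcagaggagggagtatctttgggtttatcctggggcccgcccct
The motif begins 35 bases before the start of Mmp13 and 44 bases before that of Mmp12. The letters TATAAA, the core of a TATA box, begin 16 bases before the start of Mmp13 and were found in 12.4% of all windows on either strand. A match of this kind describes the letters and does not show that a factor binds there.

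Total counts ran from 21160690 to 26339251 in KO libraries and from 21411113 to 23100862 in WT libraries, and the counts of the 10 genes lay between 48 for Mmp13 in KO replicate 3 and 8972 for Mmp12 in KO replicate 2. Ephb2, the targeted gene, was at 6.01, 8.87 and 6.95 CPM (counts scaled to library size with TMM factors) in KO libraries and at 9.46, 8.28 and 12.4 CPM in WT libraries, so the genotypes overlapped. The markers fixed for hepatocytes (6 genes), mesenchymal cells (8 genes) and macrophages (7 genes) were all detected. Acute phase genes of hepatocytes, summed over 8 genes, were high in KO replicate 2, WT replicate 1 and WT replicate 3, and thus split each genotype. The labels number the samples within a genotype and do not say more of their origin, so the p-values cover the spread among these libraries, which may be technical.

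Per length, Mmp12 and Timp2 were the most abundant of the 10 genes, and Reck and Mmp13 the least. Levels between genes are given in TPM (counts divided by exon length and scaled to the same total in each library). The length is that of all annotated exons of a gene joined, 7237 bases for Mmp12 and 2673 for Mmp13. Which transcripts the liver used was not examined. Transcripts of another length would shift a gene alike in all 6 libraries, which the library ranges cannot show. The order and the ratios between genes thus hold for these lengths. Over the 6 libraries, Mmp12 averaged 129 ± 15.3 TPM and Timp2 119 ± 28.2 TPM (SD, n = 6). Next came Mmp14 with 69.6 ± 6.14 TPM, Mmp2 with 57.0 ± 20.3 TPM, Mmp19 with 56.8 ± 4.34 TPM and Timp3 with 54.6 ± 17.9 TPM. Ctsk averaged 33.4 ± 5.86 TPM, Timp1 31.2 ± 5.72 TPM, Reck 5.46 ± 1.44 TPM and Mmp13 4.55 ± 1.73 TPM. In this order the library ranges of neighbouring genes were apart at 2 steps. The lowest library of Timp2 (85.0 TPM) lay above the highest of Mmp14 (76.3 TPM), and the lowest of Timp1 (21.2 TPM) above the highest of Reck (7.75 TPM). The ranges of all other neighbours overlapped, so the order of Mmp14, Mmp2, Mmp19 and Timp3, for example, is not settled beyond their spread. Within each of the 6 libraries, though, Timp3 lay above Ctsk. Mmp12 exceeded its neighbour on the chromosome, Mmp13, by a factor of 17.4 in WT replicate 3, the lowest ratio, and 51.6 in KO replicate 3, the highest. The genes also differed in how steady they were: the highest library exceeded the lowest 2.76-fold for Mmp13, 2.62-fold for Mmp2 and 2.61-fold for Timp3, but 1.26-fold for Mmp14 and for Mmp19.

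**Figure D1:**
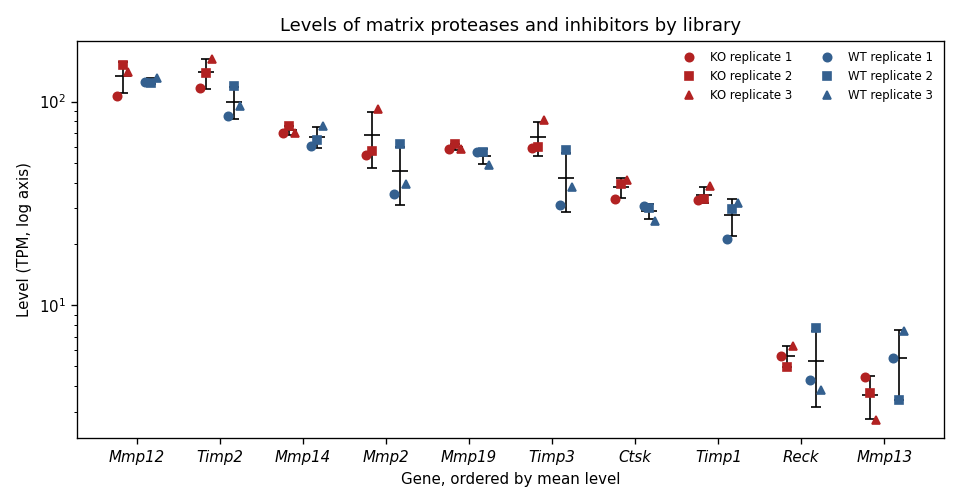
Level of each of the 10 genes in TPM on a log axis, with KO libraries in red left of WT libraries in blue; the marker shape gives the replicate, and black bars give the mean ± SD of 3 libraries. Mmp12 and Timp2 lie highest, Reck and Mmp13 lowest, and the libraries of Mmp14 and Mmp19 lie closest together.

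The comparison of KO with WT liver asks how matrix-degrading enzymes and their inhibitors stand under this diet when cells that express Pdgfrb lose Ephb2. None of the 10 genes passed edgeR's quasi-likelihood test with Benjamini-Hochberg adjustment over all 17083 genes tested, and neither did any other gene (0% called, smallest adjusted p = 0.850). limma-voom called 0 genes as well and DESeq2 called 8 of 14107 (0.0567%), none of them among the 10. At an unadjusted p under 0.05 stood 3 of the 10, Timp3, Timp2 and Ctsk, all with higher means in KO liver, where 5.19% of all genes tested had such a p and 3.08% had it with a higher level in KO. That count rests on single libraries: it was 0 without KO replicate 3, 1 without KO replicate 2 and 1 without WT replicate 1. In the same fits 452, 899 and 667 genes of the whole table had such a p. It was 4 without KO replicate 1, 4 without WT replicate 2 and 3 without WT replicate 3. The whole table then held 892, 1858 and 721 such genes. The log2 fold change was positive for 8 of the 10 genes, against 49% of all genes, and the median was 0.14, against -0.005 over all genes tested. The genes at an unadjusted p under 0.05 numbered 886 over the whole table, 527 higher and 359 lower in KO, but 957 by library size alone, 804 higher and 153 lower. By that scaling 9 of the 10 and 67.1% of all genes were positive. For 1 of the 10 genes, Timp3, the libraries of the genotypes were fully apart in CPM, with KO higher, where this held for 11.1% of all genes and for 6.21% with KO higher. By library size alone 4 of the 10 did not overlap, Timp1, Timp3, Mmp19 and Ctsk, all higher in KO. By that scaling this held for 11.4% of all genes and for 9.31% with KO higher.

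**Figure D2:**
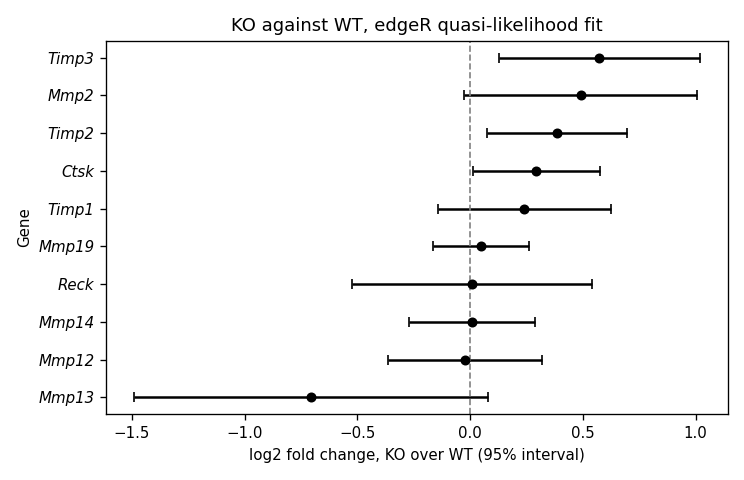
Log2 fold change of the 10 genes, KO over WT, from edgeR's quasi-likelihood fit, with 95% intervals, not adjusted for the number of genes, as horizontal bars; the dashed line marks no difference. The points run from 0.57 for Timp3 to -0.70 for Mmp13, and no gene passed after adjustment over all genes.

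Among the inhibitors, Timp3 had the largest difference between the genotypes. Its product stays bound to the matrix and also inhibits ADAM and ADAMTS proteases. Timp3 was at 149, 151 and 195 CPM in KO replicates 1 to 3, against 86.1, 143 and 104 CPM in WT replicates 1 to 3. All KO libraries thus lay above all WT libraries, and WT replicate 2 came closest to them. Timp3 averaged 165 ± 25.9 CPM in KO and 111 ± 28.9 CPM in WT liver (SD, n = 3 each), a log2 fold change of 0.57 (SE 0.19, 95% interval 0.13 to 1.02, edgeR adjusted p = 0.850). The intervals given here are not adjusted for the number of genes tested. Timp3 (chromosome 10 of GRCm38, positions 86300372 to 86349506, plus strand, up to 5 exons in a transcript) lies within Syn3, a gene on the other strand that shares 21.3% of the exon bases of Timp3. Syn3 had 44 to 121 counts per library, against 1739 to 4375 for Timp3.

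Timp2 (chromosome 11, 118301069 to 118355740, minus strand) encodes a soluble inhibitor that also takes part in the activation of the gelatinase A precursor by the membrane protease MT1-MMP. It was at 140, 167 and 186 CPM in KO libraries, against 112, 141 and 125 CPM in WT libraries. The genotypes overlapped by a narrow margin, between KO replicate 1 and WT replicate 2. The means were 164 ± 23.3 CPM in KO and 126 ± 14.2 CPM in WT liver (SD, n = 3 each), a log2 fold change of 0.38 (SE 0.13, 95% interval 0.08 to 0.69, edgeR adjusted p = 0.850).

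Timp1 (chromosome X, 20870166 to 20874735, plus strand), the inducible soluble inhibitor that is widely used as a marker of liver fibrosis, was at 9.02, 9.14 and 10.1 CPM in KO libraries, against 6.39, 8.02 and 9.47 CPM in WT libraries. The KO libraries lay close together, with WT replicate 3 among them and the other WT libraries lower. Its log2 fold change was 0.24 (SE 0.17, 95% interval -0.14 to 0.62, edgeR adjusted p = 0.850), and 0.10 without WT replicate 1, the lowest library, or 0.38 without WT replicate 3. Reck (chromosome 4, 43875530 to 43944806, plus strand), which inhibits metalloproteinases at the cell surface, was at 8.32, 7.36 and 8.87 CPM in KO libraries, against 6.98, 11.2 and 6.12 CPM in WT libraries. The WT libraries of Reck spanned the KO libraries on both sides, and the log2 fold change was 0.009 (SE 0.23, 95% interval -0.52 to 0.54, edgeR adjusted p = 0.994). Its sign turned when KO replicate 1 or 3 or WT replicate 1 or 3 was left out.

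Among the proteases, Mmp2 stood higher on average in KO liver and Mmp13 lower, while Mmp12, Mmp14 and Mmp19 had nearly equal means. Gelatinase A, the product of Mmp2 (chromosome 8, 92827291 to 92853420, plus strand), cleaves denatured collagen and basement membrane collagen. Mmp2 was at 57.1, 60.3 and 91.5 CPM in KO libraries, against 40.3, 63.5 and 44.8 CPM in WT libraries. KO replicate 3 stood apart above the rest, and WT replicate 2 lay above the other two KO libraries. The log2 fold change was 0.49 (SE 0.22, 95% interval -0.03 to 1.00, edgeR adjusted p = 0.850), and 0.24 without KO replicate 3.

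Mmp13, the main interstitial collagenase of the mouse, had the largest difference in size and the least depth, with 48 to 141 counts per library. It was at 3.66, 3.07 and 2.14 CPM in KO libraries, against 5.00, 2.77 and 6.74 CPM in WT libraries. WT replicates 1 and 3 lay above all KO libraries and WT replicate 2 lay among them. The log2 fold change was -0.70 (SE 0.34, 95% interval -1.49 to 0.08, edgeR adjusted p = 0.850), and -0.39 without WT replicate 3.

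Mmp12, the elastase of macrophages, was at 239, 340 and 299 CPM in KO libraries, against 306, 269 and 318 CPM in WT libraries. The KO libraries held both the lowest and the highest value, and the log2 fold change was -0.02 (SE 0.15, 95% interval -0.37 to 0.32, edgeR adjusted p = 0.977), with a sign that turned by library size alone and without KO replicate 1 or WT replicate 3. Mmp14 (chromosome 14, 54431612 to 54445364, plus strand) encodes MT1-MMP, the membrane-anchored activator of gelatinase A, and was at 129, 142 and 123 CPM in KO libraries, against 122, 117 and 152 CPM in WT libraries. Its log2 fold change was 0.007 (SE 0.12, 95% interval -0.27 to 0.29, edgeR adjusted p = 0.992). The sign turned with DESeq2 and without KO replicate 2, WT replicate 1 or WT replicate 2. Mmp19 (chromosome 10, 128790910 to 128800824, plus strand), a secreted protease of basement membrane components, was at 63.8, 68.1 and 60.8 CPM in KO libraries, against 67.7, 60.5 and 58.1 CPM in WT libraries. It had the narrowest interval of the 10 genes, with a log2 fold change of 0.05 (SE 0.09, 95% interval -0.16 to 0.26, edgeR adjusted p = 0.918). Tmem198b on the other strand shares 22.3% of the exon bases of Mmp19 and had 130 to 164 counts per library, against 1215 to 1795 for Mmp19.

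Ctsk (chromosome 3, 95499256 to 95509362, plus strand) was at 15.5, 18.5 and 18.4 CPM in KO libraries, against 15.7, 13.8 and 13.2 CPM in WT libraries. The genotypes overlapped only between KO replicate 1 and WT replicate 1. The means were 17.4 ± 1.71 CPM in KO and 14.2 ± 1.30 CPM in WT liver (SD, n = 3 each), a log2 fold change of 0.29 (SE 0.12, 95% interval 0.01 to 0.57, edgeR adjusted p = 0.850). Cst3, the gene of cystatin C, an inhibitor of cysteine cathepsins, was at 158, 161 and 164 CPM in KO libraries, against 151, 149 and 154 CPM in WT libraries. These values did not overlap, yet the log2 fold change was 0.08 (SE 0.08, edgeR adjusted p = 0.867). Cst3 was the 1 gene without overlap among the 12 cathepsins and cystatins listed below, where this held for 11.1% of all genes tested. The other cystatin gene of that list, Cstb, had a lower mean in KO liver (log2 fold change -0.22, SE 0.12, edgeR adjusted p = 0.850).

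The balance of inhibitor to protease RNA was taken per library as the summed TPM of Timp1, Timp2 and Timp3 over that of Mmp2, Mmp12, Mmp13, Mmp14 and Mmp19, a ratio that does not depend on library scaling. Protease RNA exceeded TIMP RNA in every library, by these exon lengths and also without division by length. The size of the ratio depends on the lengths used. The ratio was 0.708, 0.659 and 0.776 in KO replicates 1 to 3, against 0.487, 0.667 and 0.546 in WT replicates 1 to 3. The genotypes overlapped because WT replicate 2 lay just above KO replicate 2, and the other WT libraries lay lower. On the log2 scale the balance averaged -0.49 ± 0.12 in KO and -0.83 ± 0.23 in WT liver (SD, n = 3 each), a difference of 0.34, with no test since it is a score over chosen genes. TIMP RNA was at 209, 231 and 283 TPM in KO libraries, against 137, 207 and 165 TPM in WT libraries, and protease RNA at 295, 351 and 364 TPM in KO libraries, against 282, 310 and 302 TPM in WT libraries. On this scale the TIMP sums did not overlap between genotypes, although KO replicate 1 and WT replicate 2 were nearly equal, while the protease sums did overlap.

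Timp2 supplied 55.8 to 59.8% of TIMP RNA in KO libraries and 57.6 to 61.9% in WT libraries, and Timp3 25.8 to 28.8% in KO and 22.7 to 27.9% in WT libraries. Mmp12 was the largest protease share, at 36.3 to 43.1% in KO and 39.6 to 44.1% in WT libraries. Mmp2 made up 16.4 to 25.4% of protease RNA in KO and 12.5 to 20.1% in WT libraries. With Mmp12 left out of the proteases the log2 balance was 0.15, 0.21 and 0.34 in KO libraries, against -0.20, 0.14 and -0.06 in WT libraries. Without this macrophage enzyme the genotypes did not overlap, again by a narrow margin to WT replicate 2, and TIMP RNA exceeded protease RNA in 3 of 3 KO and 1 of 3 WT libraries. The genotypes did not overlap either with Timp3 left out of the inhibitors or with the mean of log2 levels in place of sums. In both settings KO replicate 2 lay just above WT replicate 2, at -1.03 against -1.06 and at 0.577 against 0.572. The genotypes overlapped with Ctsk counted among the proteases and with Reck counted among the inhibitors. They also overlapped with the rest of the family added and without division by gene length. The trio of Timp2, Mmp14 and Mmp2, whose products act together in the activation of gelatinase A, was also set out as ratios. Timp2 to Mmp14 stood at 1.66, 1.81 and 2.32 in KO libraries, against 1.41, 1.83 and 1.26 in WT libraries. Timp2 to Mmp2 stood at 2.12, 2.40 and 1.76 in KO libraries, against 2.41, 1.92 and 2.41 in WT libraries. Both ratios overlapped between the genotypes.

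**Figure D3:**
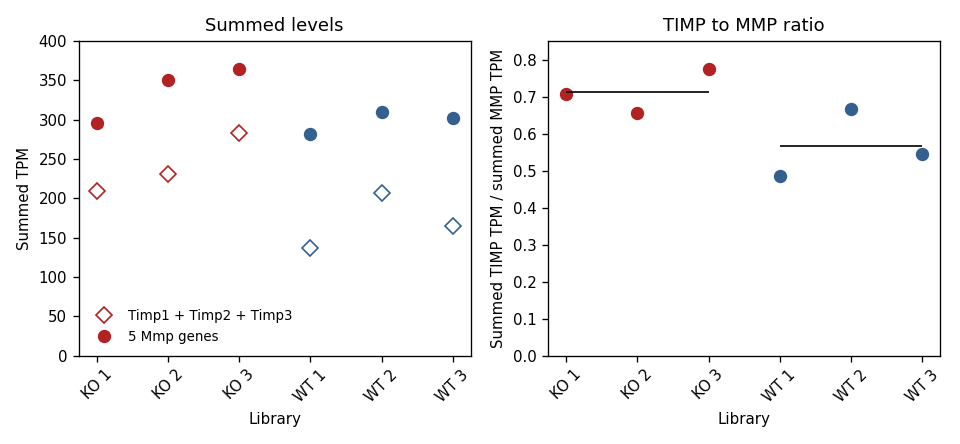
Left, summed TPM of Timp1, Timp2 and Timp3 (open diamonds) and of Mmp2, Mmp12, Mmp13, Mmp14 and Mmp19 (filled circles) in each library; right, their ratio, with the mean of each genotype as a line. KO libraries are red and WT libraries blue. The ratio lies between 0.659 and 0.776 in KO and between 0.487 and 0.667 in WT libraries.

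Across the 6 libraries the genes followed different patterns, described by the root mean square (RMS) difference of log2 CPM after centring each gene on its own mean. Timp3 and Mmp2 were the pair most alike, at 0.11, and Mmp2 and Mmp13 the pair least alike, at 0.90. Both Timp3 and Mmp2 were highest in KO replicate 3 and lowest in WT replicate 1, whereas Mmp13 was lowest in KO replicate 3 and highest in WT replicate 3. Each was compared with 10993 genes that had a mean of at least 5 CPM and an established symbol. Predicted genes, clone names and mitochondrial genes were left out. Nearest to Timp3 among them were Bicc1 (0.05), Dcdc2a (0.05), Egflam (0.06) and Kcnma1 (0.06), on the same RMS scale. Nearest to Mmp2 were Dcdc2a (0.09), Bicc1 (0.10), Numbl (0.10) and Itgb8 (0.10), so 2 genes stood on both lists. Timp1 was nearest to Tamm41 (0.04), Src (0.05), Itpr3 (0.05) and Apobec3 (0.05), and Mmp12 to Tmco3 (0.05), Zfp839 (0.05), Hacd4 (0.05) and Ccdc122 (0.06). All these genes were measured in the same 6 libraries and share their depth and scaling. With so few libraries, many of the genes compared can come close to any pattern.

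Sums of cell type markers moved between the libraries as well, and their part in the values above was not tested. Bile duct markers (6 of 6 detected) summed to 408, 392 and 509 CPM in KO libraries, against 262, 380 and 277 CPM in WT libraries. Like Timp3 and Mmp2 this sum was highest in KO replicate 3 and lowest in WT replicate 1. Pkhd1 gave 369 CPM of it in KO replicate 3, whereas Krt7, Sox9 and Cftr were highest in KO replicate 2. The sums did not overlap, and 6 of 6 markers were positive, with a median log2 fold change of 0.38. At an unadjusted p under 0.05 stood 4, all higher in KO, beside 5.19% of all genes tested. Without overlap were 3, beside 11.1%, and 0 passed after adjustment. Mesenchymal markers (8 of 8 detected) summed to 2757, 2507 and 3204 CPM in KO libraries, against 2062, 3199 and 2311 CPM in WT libraries. KO replicate 3 and WT replicate 2 were nearly equal at the top. The sum was highest in KO replicate 3 and lowest in WT replicate 1, as were Timp3 and Mmp2. Col1a1, Col1a2 and Col3a1 made up most of it. Col1a1, Col1a2 and Lum had the same highest and lowest library. Pdgfrb, Col3a1 and Des were highest in WT replicate 2, Dcn in KO replicate 2 and Lrat in WT replicate 3. Lrat was the 1 of 8 at an unadjusted p under 0.05, and was lower in KO (log2 fold change -0.42, SE 0.16, edgeR adjusted p = 0.850). Kupffer cell markers (5 of 5 detected) summed to 381, 292 and 176 CPM in KO and 383, 300 and 804 CPM in WT libraries. WT replicate 3 was thus highest and KO replicate 3 lowest, as for Mmp13. Of these 5 markers 0 were positive, and 2 had an unadjusted p under 0.05, with 0 passing after adjustment. Endothelial markers summed to 451, 406 and 357 CPM in KO libraries, against 414, 426 and 603 CPM in WT libraries. They too were highest in WT replicate 3 and lowest in KO replicate 3. Lipid-associated macrophage markers (6 of 6 detected) summed to 1476, 1900 and 1701 CPM in KO libraries, against 1616, 1439 and 1700 CPM in WT libraries. Gpnmb and Lpl made up most of this sum, with 777 and 793 CPM in KO replicate 2. They and Trem2 were highest in that library, whereas Cd9, Fabp5 and Cd63 were highest in WT replicate 3. Mmp12, like the sum, was highest in KO replicate 2. It was lowest in KO replicate 1 and second lowest in WT replicate 2, which were also the pair of libraries lowest in this sum. General macrophage markers summed to 1751, 2131 and 1761 CPM in KO libraries, against 1922, 1559 and 2451 CPM in WT libraries. They were highest in WT replicate 3, unlike Mmp12, and lowest in WT replicate 2 and KO replicate 1.

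**Figure D4:**
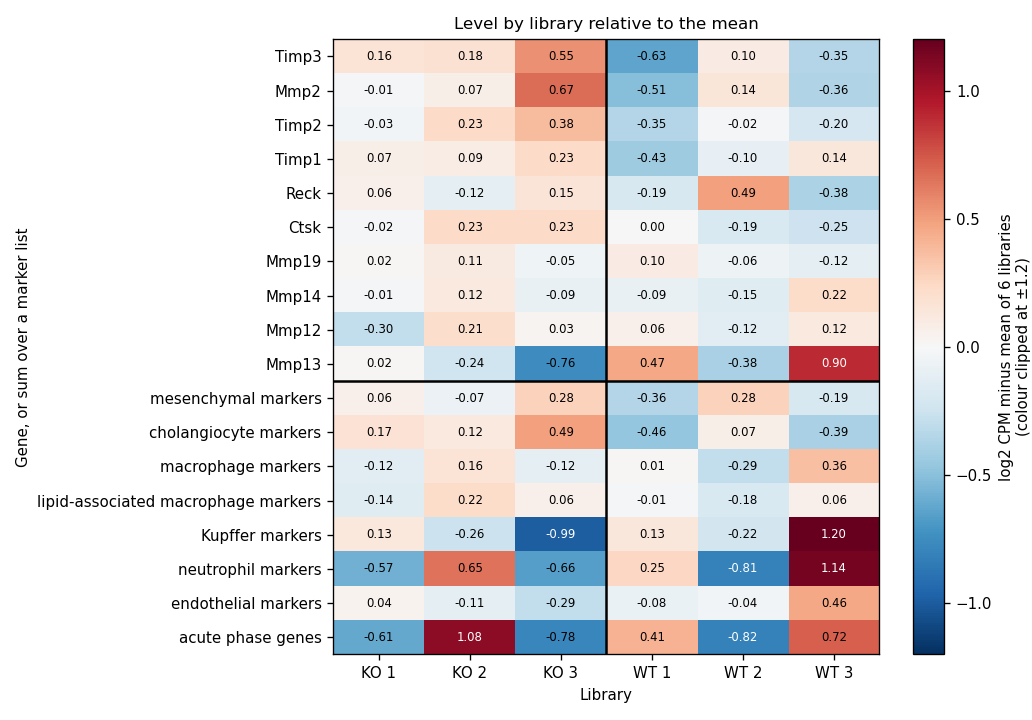
Log2 CPM of the 10 genes (above the line) and of summed marker lists (below it) in each library, minus the mean over the 6 libraries; KO libraries are left of WT libraries, red is above and blue below the mean. Timp3, Mmp2, bile duct (cholangiocyte) markers and mesenchymal markers are highest in KO 3 and lowest in WT 1. Mesenchymal markers are nearly as high in WT 2. Mmp13, Kupffer cell markers and endothelial markers are highest in WT 3 and lowest in KO 3.

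The rest of the metalloproteinase family and Timp4 comprised 19 further genes, of which 11 passed the filter and 0 passed edgeR's test after adjustment. Of the 11, 6 had a positive log2 fold change and the median was 0.10. The most abundant in CPM were Mmp15, a membrane-type protease, at 101, 95.4 and 94.4 CPM in KO libraries, against 109, 84.9 and 71.5 CPM in WT libraries, and Mmp7, matrilysin, at 35.1, 66.0 and 39.6 CPM in KO libraries, against 24.9, 42.4 and 63.8 CPM in WT libraries. Both overlapped between the genotypes. Mmp11, stromelysin 3, was the 1 gene of the 11 at an unadjusted p under 0.05 and without overlap, where 5.19% of all genes had such a p and 11.1% did not overlap, so these counts are near those shares. It was at 3.75, 3.49 and 4.55 CPM in KO libraries, against 2.72, 2.86 and 2.15 CPM in WT libraries, a log2 fold change of 0.60 (SE 0.20, edgeR adjusted p = 0.850). The neutrophil enzymes Mmp8 and Mmp9 were at 1.43 to 4.44 and 3.61 to 8.42 CPM in KO libraries, against 0.882 to 7.89 and 3.66 to 11.3 CPM in WT libraries. Neutrophil markers (5 of 5 detected) were likewise highest in WT replicate 3 and spread within both genotypes, from 31.4 to 78.3 CPM in KO and 28.5 to 110 CPM in WT libraries. Mmp17, Mmp23, Mmp24, Mmp25, Mmp27 and Mmp28 lay between 0.756 and 8.27 CPM in all libraries. Mmp1a and Mmp1b had no count in any library. Timp4, Mmp3, Mmp10, Mmp16, Mmp20 and Mmp21 did not pass the filter, and of these Mmp3 reached 1.97 CPM in KO replicate 2.

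In 3 other proteolytic systems and among matrix substrates no gene passed edgeR's test after adjustment, and the counts at an unadjusted p under 0.05 below stand beside 5.19% of all genes tested. Among ADAM and ADAMTS proteases it was 0 of 15, with 8 positive and a median log2 fold change of 0.00035. The smallest p there fell to Adam19 (0.26, SE 0.14), Adamts5 (0.47, SE 0.26), an aggrecanase, and Adamts7 (0.46, SE 0.26), each given as a log2 fold change. Among lysosomal cathepsins and cystatins it was 0 of 12, with 3 positive and a median of -0.13, while Ctsk was positive. Cstb (-0.22, SE 0.12), Ctsz (-0.21, SE 0.15) and Ctsc (-0.35, SE 0.28) had the smallest p. In the plasminogen system and wide-range inhibitors it was 1 of 11, Plaur, the urokinase receptor, at 9.50, 9.63 and 10.1 CPM in KO libraries, against 11.0, 11.3 and 14.0 CPM in WT libraries (log2 fold change -0.31, SE 0.13, edgeR adjusted p = 0.850). Plau, urokinase (0.23, SE 0.12), and Serpine2, a serine protease inhibitor (0.47, SE 0.24), followed. Of 10 matrix substrates 0 had an unadjusted p under 0.05, with 7 positive and a median of 0.05. The smallest p belonged to Col1a2 (0.27, SE 0.19), Eln (0.44, SE 0.37) and Fn1 (-0.29, SE 0.25), and all 10 overlapped between the genotypes.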

How the data were processed

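Whole-liver RNA was enriched for polyadenylated transcripts and made into libraries with a directional kit, per the labels' protocols. The deposited values are raw read counts for each Ensembl gene ID, not normalized by the authors. STAR 2.7.6a, featureCounts 1.6.3, DESeq2 1.30.0 and the build GRCm38 appear, with no role given, per the submitters' processing notes. Neither the strand setting nor the annotation release behind the counts is stated there, so reads of overlapping genes could be shared.

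From these counts, edgeR 4.0.16 (TMM, filterByExpr with a minimum count of 10 and total of 15, glmQLFit, glmQLFTest, Benjamini-Hochberg at 0.05) in R 4.3.3 was fitted over all genes with genotype as the sole term. DESeq2 1.42.0 and limma-voom (limma 3.58.1) were alternatives. Symbols, positions and exon lengths came from GENCODE M21, which held 94.1% of the gene IDs. TPM used the union of a gene's exons. The fit was also run on simulated counts, drawn for each gene on its own. They held no differences between libraries shared by many genes, so that run does not cover such differences here. Libraries differed by more than sampling noise (chi-square per degree of freedom 10.4 to 69.6). Promoter sequences are from RefSeq.

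The genes and lists were chosen with earlier results of these data known. The naming rule took all 10 genes, the rest of the family, up to 3 genes with the smallest p per list, and 4 genes nearest in pattern to each of 4 genes. Cst3 was named after its values were seen.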

Additional observations from a re-analysis of the deposited data

How the results depend on the processing

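Of 140 log2 fold changes of the 10 genes under 14 alternatives each, 129 kept their direction and none passed the threshold. The 11 that reversed belonged to genes near 0, and the cause was not tested. Mmp12 stood at 0.060 by library size alone and ran from -0.15 to 0.10 with single libraries left out. Mmp14 stood at -0.0039 with DESeq2 and ran from -0.065 to 0.13, and Reck ran from -0.16 to 0.32. Genes called over the whole table numbered 3 without a count filter, 8 with DESeq2 and 0 to 2 with single libraries left out (2 without WT replicate 3), against 0. Without a count filter 1390 genes had an unadjusted p under 0.05, against 886. With WT replicate 2 left out this number was 1858, and with KO replicate 3 left out 452. Of the 10 genes, 0 to 4 had such a p with single libraries left out. By library size alone 4 did not overlap, all with KO higher, where 9.31% of all genes did so. The difference in balance ran from 0.24 (without WT replicate 1) to 0.47 (without WT replicate 2) and from 0.27 to 0.44 under other choices of members, lengths and summary. Same-numbered libraries did not deviate together (correlations of -0.03, -0.44 and -0.31). Each deviation was taken from the mean of the few libraries of a genotype, so these values cannot show or exclude a pairing. With the replicate block 2 of the 10 genes had an unadjusted p under 0.05, Timp2 and Timp3, and 0 genes were called of all, with 537 at an unadjusted p under 0.05. Mmp13 had the fewest counts of the 10 genes (48 to 141 per library) and the largest SE (0.34), and what depth contributed to that SE was not tested.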
